A study of Mus musculus with 13 samples.

Results

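Of the 45777 genes with a row in the deposited expression table, 7 encode the subunits of the sodium-potassium pump (Na,K-ATPase) described here, namely the beta subunits Atp1b1, Atp1b2 and Atp1b3 and the FXYD subunits Fxyd1, Fxyd5, Fxyd6 and Fxyd7. The 7 were chosen by gene symbol from the read counts of the 4 groups, with those counts in view and with no stated threshold, so their differences between groups are given below as a description, and the counts of members called in fits over all genes are printed without being read as support. Total RNA from mouse hippocampus, taken at day 3, was sequenced in 13 libraries. All mice carried Nestin-Cre, which acts in neural progenitors and the neurons and glia that derive from them, either with intact Lin28a (Nestin-Cre::Lin28a+/+, WT) or with a floxed Lin28a (Nestin-Cre::Lin28aloxP/loxP, cKO). They were injected at 6 weeks of age with saline (sham) or with pilocarpine to induce status epilepticus (SE), at a dose of 260 mg/kg for male and 280 mg/kg for female mice. The sham groups held 3 WT and 4 cKO libraries and the SE groups 3 of each genotype (named sham-WT, sham-cKO, SE-WT, SE-cKO), which the labels call biological replicates, and the sex of each mouse is not given in the labels. Because Cre acts in the whole neural lineage, the cKO groups model loss of Lin28a in neurons, astrocytes and oligodendrocytes together, and not in 1 cell type.

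The sodium-potassium pump is a P-type ATPase that uses ATP to move sodium out of the cell and potassium into it, which restores the ion gradients after neuronal firing. Its catalytic alpha subunit needs a beta subunit, a glycoprotein that carries it to the membrane and tunes its affinity for potassium, and it is often joined by a small single-span FXYD protein that adjusts its kinetics. In the brain, Atp1b1 is mainly neuronal, Atp1b2 (also known as AMOG, the adhesion molecule on glia) is mainly astrocytic and Atp1b3 is found in many cell types. Among the FXYD proteins, Fxyd6 and Fxyd7 are mainly neuronal, Fxyd1 (phospholemman) is found in astrocytes and choroid plexus, and Fxyd5 (dysadherin) is a widely expressed sialoglycoprotein linked to cell adhesion. These classes are background knowledge and were not derived from the libraries.

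Library totals ranged from 59659977 to 84354243 read counts, so counting error was small beside the spread between replicate libraries. Lin28a had 3 counts in SE-WT replicate 3 and 0 in each of the other 12 libraries, which cannot check the deletion. With no reads, the level could still be as high as 3 counts, or 0.0356 to 0.0503 CPM depending on the library, by counting error alone, where CPM are read counts scaled to a common library total. All 8 markers of hippocampal principal neurons were detected, with summed levels of 409 to 562 CPM in sham-WT and 486 to 517 CPM in sham-cKO. After SE the sums were 121, 123 and 358 CPM in SE-WT replicates 1, 2 and 3, and 215 to 258 CPM in SE-cKO. Whether these lower sums reflect SE or the tissue taken was not tested. A total of 3 libraries stood apart in genes of neighboring regions. The summed level of 6 thalamic neuron genes was 1303 CPM in sham-cKO replicate 2 and 728 CPM in SE-WT replicate 3, and at most 141 CPM in the others. The summed level of 6 striatal neuron genes was 1115 CPM in SE-WT replicate 2 and at most 95.4 CPM in the others. In addition, SE-WT replicate 3 and SE-cKO replicate 3 bore a different style of sample title, and mitochondrial ribosomal RNA took 4.83% and 3.92% of their counts, compared with 0.486% to 1.66% elsewhere. Xist, used here as a marker of sex, was at 176 and 257 CPM in sham-WT replicates 2 and 3 and 304 CPM in sham-cKO replicate 3. It was at 406 CPM in SE-WT replicate 2, 511 and 335 CPM in SE-cKO replicates 2 and 3, and at most 2.96 CPM in the others. By this gene, sex was not balanced over the groups.

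A total of 3 members are neighbors on the minus strand of chromosome 7 (GRCm38, GENCODE M21), in the order Fxyd5 (chr7:31032722-31042481), Fxyd7 (chr7:31042513-31051467) and Fxyd1 (chr7:31051678-31057199). Only 31 bases separate Fxyd5 from Fxyd7 and 210 bases separate Fxyd7 from Fxyd1, and all are transcribed in the direction from Fxyd1 to Fxyd5. In cKO mice, the levels of the outer genes Fxyd5 and Fxyd1 were higher after SE and that of Fxyd7 between them was lower (values with each gene). Atp1b1 (chr1:164437109-164458355, minus strand) overlaps the opposite-strand gene Nme7 over 617 bases at its 3′ end, and the strand setting of the counting, on libraries from a stranded kit, is not given in the sources used here. Atp1b2 (chr11:69599736-69605942, minus strand), Atp1b3 (chr9:96332655-96364442, minus strand) and Fxyd6 (chr9:45370185-45396159, plus strand) overlap no other annotated gene.

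The 250 bases before the start of Fxyd1 and of Atp1b1 are shown as one gene that was higher and one that was lower after SE in cKO mice (RefSeq sequences, GRCm38.p6, minus strand, printed 5′ to 3′ along the gene). The Fxyd1 stretch lies inside the span that GENCODE gives the gene, which has a start farther upstream, and neither stretch holds an annotated exon. The searched motifs were AP-1 (TGANTCA), STAT (TTCNNNGAA), Sp1 (GGGCGG), the TATA box (TATAA) and the CCAAT box, on both strands, and capitals mark every match. No 2 of the marked matches overlap. Forms of the TATA box other than the letters TATAA were not searched, so an unmarked stretch may still hold one.
Fxyd1, chr7:31054854-31055103: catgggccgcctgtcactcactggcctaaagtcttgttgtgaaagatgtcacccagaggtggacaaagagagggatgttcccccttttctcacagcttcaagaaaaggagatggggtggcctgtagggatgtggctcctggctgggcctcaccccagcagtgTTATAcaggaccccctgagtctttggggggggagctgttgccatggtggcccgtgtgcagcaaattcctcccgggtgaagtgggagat
Atp1b1, chr1:164458356-164458605: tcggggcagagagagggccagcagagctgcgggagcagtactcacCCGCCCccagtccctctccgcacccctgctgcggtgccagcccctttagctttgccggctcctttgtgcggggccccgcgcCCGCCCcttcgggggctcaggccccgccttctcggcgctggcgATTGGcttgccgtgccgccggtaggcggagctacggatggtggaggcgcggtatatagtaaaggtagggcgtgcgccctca
The Fxyd1 stretch had a GC content of 57.2% and held 1 TATAA match on the opposite strand. The Atp1b1 stretch had a GC content of 70.4% and held 2 Sp1 matches and 1 CCAAT match, all on the opposite strand. Over the 32851 promoters in the reference table, 22.8% held TATAA, 32.7% held the Sp1 motif, 33.8% held CCAAT, 6.75% held the AP-1 motif and 7.02% held the STAT motif within 250 bases. The letters of the AP-1 and STAT motifs were in neither window.

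LIN28A is known to block the maturation of let-7 microRNAs, which bind target transcripts through their seed, so the members' 3′ UTRs were searched for the match to that seed. The mature let-7a-5p sequence (RefSeq, chr13:48538239-48538260) is shown with the seed, bases 2 to 8, in capitals, followed by the 2 matches found among the members, both in Fxyd5, with the match CTACCTC in capitals.
let-7a-5p: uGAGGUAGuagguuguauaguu
Fxyd5, chr7:31034425-31034431: ccctcctgcctCTACCTCccaagtgcttag
Fxyd5, chr7:31034001-31034007: acactccacgtCTACCTCtggtgggggagg
Both matches lie in an exon of only 1 of the 11 protein-coding Fxyd5 transcripts, which has the longest 3′ UTR of the gene at 2411 bases. By the same rule of the longest 3′ UTR per gene, 1896 of 21011 protein-coding genes (9.02%) held at least 1 match. MicroRNA levels were not analysed here.

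Of the mainly neuronal members, Atp1b1 had the highest level of the 7 per transcript length (TPM, given with the order of levels). Its level was 865, 1003 and 877 CPM in the sham-WT libraries, and 973, 956, 953 and 1011 CPM in the sham-cKO libraries. After SE it was 757, 550 and 1093 CPM in SE-WT, and 681, 479 and 780 CPM in SE-cKO. The 3 SE-cKO libraries lay below all sham-cKO libraries, whereas the SE-WT libraries spread to both sides of the sham-WT libraries, with the thalamic-high replicate 3 highest and the striatal-high replicate 2 lowest. The log2 fold change after SE was -0.62 (standard error 0.16) in cKO and -0.22 (standard error 0.24) in WT mice, and the latter was -0.49 with SE-WT replicate 3 left out and -0.01 with replicate 2 left out. In bulk tissue, fewer cells of a type and less RNA per cell cannot be told apart.

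Fxyd7, a brain FXYD protein that lowers the potassium affinity of the pump, was at 12.8, 10.9 and 8.87 CPM in sham-WT and at 10.3, 11.5, 9.19 and 13.3 CPM in sham-cKO. It was at 9.38, 3.09 and 11.7 CPM in SE-WT and at 5.60, 3.62 and 5.01 CPM in SE-cKO. All SE-cKO libraries were below all sham libraries of both genotypes, and among the SE-WT libraries only replicate 2, the one high in striatal genes, was. The log2 fold change after SE was -1.24 (standard error 0.22) in cKO mice. In WT mice it was -0.46 (standard error 0.44), and -0.07 without SE-WT replicate 2.

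Fxyd6, known as phosphohippolin for its expression in the hippocampus, overlapped between all groups. It was at 70.4, 54.7 and 60.1 CPM in sham-WT, and at 75.2, 32.4, 64.1 and 44.6 CPM in sham-cKO. It was at 74.1, 44.7 and 40.3 CPM in SE-WT, and at 65.4, 32.5 and 31.7 CPM in SE-cKO. The low sham-cKO library was replicate 2, the one highest in thalamic genes. The log2 fold change after SE was -0.24 (standard error 0.24) in WT and -0.35 (standard error 0.35) in cKO mice. With the 3 libraries that stood apart left out, in a fit of all 4 groups, it was -0.56 in cKO mice. In WT mice it was then 0.25, a value that rests on SE-WT replicate 1 alone, the highest SE-WT library for this gene.

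**Figure D1:**
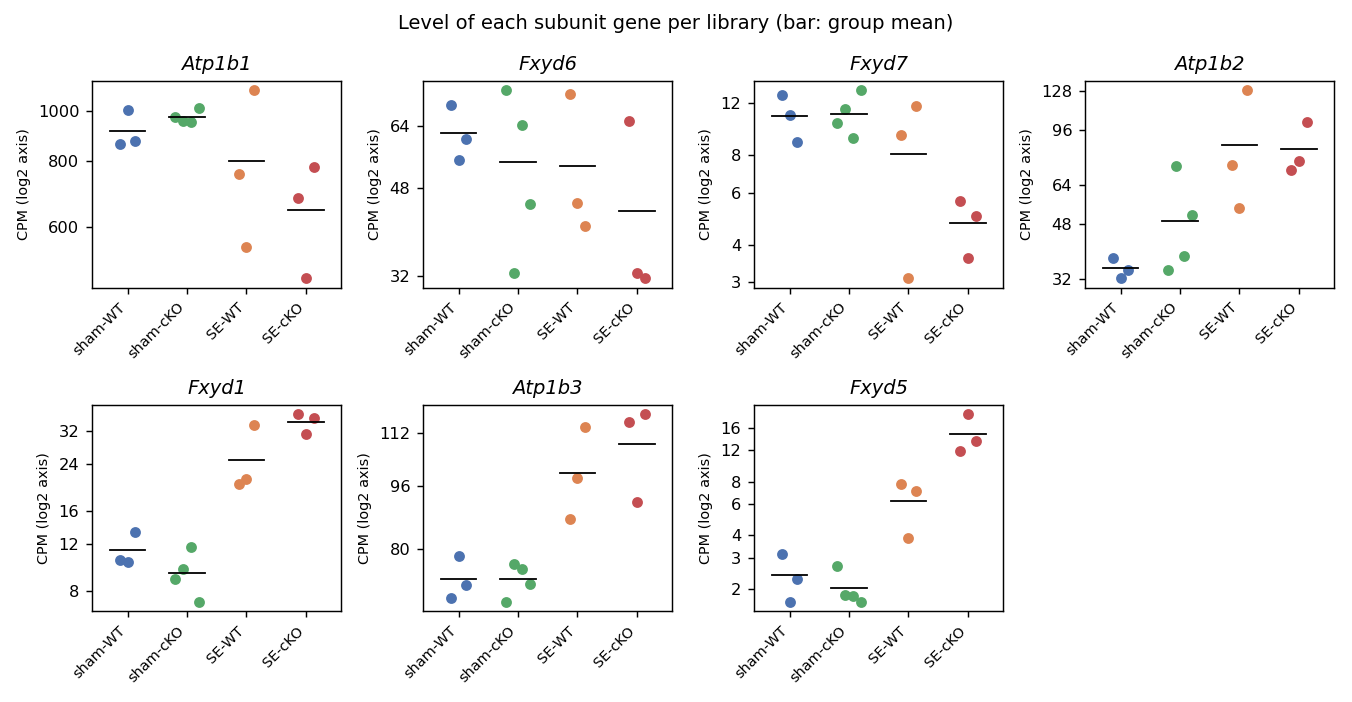
Level of each of the 7 subunit genes in every library, in CPM on a log2 axis that differs between panels. Each point is 1 library and each bar is the mean of its group (n = 3, 4, 3 and 3 from left to right). Fxyd1 and Fxyd5 show SE libraries above all sham libraries in both genotypes, and Fxyd7 shows SE-cKO libraries at 3.62 to 5.60 CPM, below all sham libraries.

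Both mainly astrocytic members had higher mean levels after SE. Fxyd1, whose phosphorylation relieves its inhibition of the pump, was at 10.5, 10.3 and 13.4 CPM in sham-WT, and at 8.85, 9.64, 11.7 and 7.28 CPM in sham-cKO. It was at 20.3, 21.1 and 33.7 CPM in SE-WT, and at 37.2, 31.2 and 36.0 CPM in SE-cKO. No SE library overlapped a sham library in either genotype. The log2 fold change after SE was 1.11 (standard error 0.23) in WT mice, or 2.16-fold, and 1.86 (standard error 0.17) in cKO mice, or 3.64-fold. Without SE-WT replicate 3, the highest SE-WT library, the WT value was 0.85. Fxyd1 is also a choroid plexus gene, and the summed level of 8 choroid plexus markers ranged from 57.6 to 4544 CPM in sham-WT, 30.7 to 2758 in sham-cKO, 26.2 to 679 in SE-WT and 42.8 to 1249 in SE-cKO. SE-WT replicate 1, with the lowest choroid plexus sum of the 13 libraries at 26.2 CPM, had 20.3 CPM of Fxyd1, and sham-WT replicate 3, with the highest at 4544 CPM, had 13.4 CPM. Within each group, the library with the highest choroid plexus sum was also the highest for Fxyd1. These were sham-WT replicate 3, sham-cKO replicate 3 (11.7 CPM of Fxyd1), SE-WT replicate 3 (33.7 CPM) and SE-cKO replicate 1 (37.2 CPM). The part of choroid plexus in the level of Fxyd1 was not tested. Folr1 was at 0 in sham-cKO replicate 1, and the other 7 choroid plexus markers were detected in every library.

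Atp1b2 was at 37.5, 32.2 and 34.3 CPM in sham-WT and at 74.6, 54.3 and 129 CPM in SE-WT, with no overlap. It was at 34.1, 73.8, 38.1 and 51.3 CPM in sham-cKO and at 71.7, 76.8 and 102 CPM in SE-cKO, where sham-cKO replicate 2 lay within the range of the SE-cKO libraries. Both libraries high in thalamic genes, sham-cKO replicate 2 and SE-WT replicate 3, were the highest of their groups for Atp1b2. They also had the highest sums of 6 oligodendrocyte markers, at 5091 and 7738 CPM, compared with at most 4323 CPM in the others. SE-WT replicate 3 and SE-cKO replicate 3 were the highest of their groups for Atp1b1, Atp1b2 and Atp1b3. Both bore the other style of sample title, which no sham library had. The part of thalamic tissue, of oligodendrocytes or of what the title style marks in these levels was not tested. The log2 fold change after SE was 1.28 (standard error 0.30) in WT and 0.73 (standard error 0.26) in cKO mice. Without SE-WT replicate 3 the WT value was 0.89, and without sham-cKO replicate 2 the cKO value was 0.98. The difference between the genotypes in these values was -0.55 (standard error 0.43) with all libraries and -0.10 with the 3 libraries that stood apart left out, which leaves only 1 SE-WT library.

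The broadly expressed members were also higher after SE. Atp1b3 was at 69.4, 78.3 and 72 CPM in sham-WT, and at 68.6, 76.5, 75.4 and 72.3 CPM in sham-cKO. It was at 87.2, 98.3 and 114 CPM in SE-WT, and at 116, 91.6 and 118 CPM in SE-cKO. All SE libraries were above all sham libraries, by a modest log2 fold change of 0.42 (standard error 0.14) in WT and 0.54 (standard error 0.12) in cKO mice.

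Fxyd5 had the lowest TPM of the 7 in every sham library and differed most after SE in cKO mice. It was at 3.17, 1.71 and 2.29 CPM in sham-WT, and at 2.71, 1.87, 1.84 and 1.70 CPM in sham-cKO. It was at 7.79, 3.90 and 7.09 CPM in SE-WT, and at 11.9, 19.0 and 13.5 CPM in SE-cKO. The SE-WT libraries were above all sham libraries, and the SE-cKO libraries were above all SE-WT libraries. The log2 fold change after SE was 1.36 (standard error 0.35) in WT mice, or 2.56-fold, and 2.84 (standard error 0.25) in cKO mice, or 7.14-fold. The sham-WT and sham-cKO libraries held 104 to 257 reads of Fxyd5, and the SE-cKO libraries 904 to 1426.

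**Figure D2:**
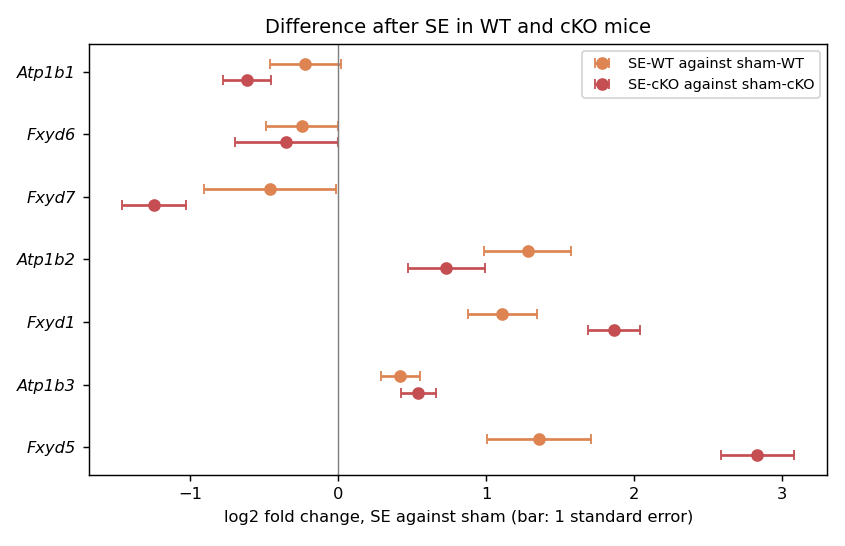
Log2 fold change of each subunit gene after SE in WT mice (3 SE-WT against 3 sham-WT libraries) and in cKO mice (3 SE-cKO against 4 sham-cKO libraries), with bars of 1 standard error from edgeR's quasi-likelihood fit. Fxyd5, Fxyd1, Atp1b2 and Atp1b3 lie to the right of 0 in both genotypes, and Fxyd7 reaches -1.24 in cKO mice.

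By edgeR's quasi-likelihood test over all genes at an adjusted p of 0.05, 1 member (Fxyd1) was called higher in SE-WT against sham-WT and 0 were called lower, where 4.57% of the 20803 genes tested were called higher and 0.832% lower. In SE-cKO against sham-cKO, 3 members (Atp1b3, Fxyd1 and Fxyd5) were called higher and 2 (Atp1b1 and Fxyd7) lower, where 13.8% of the 21307 genes tested were called higher and 8.92% lower. The members were chosen with these contrasts in view, so nothing is read from their counts. In cKO mice the call of Atp1b1 was lost in 7 of 16 alternatives, among them each fit that dropped sham-cKO library 1, 3 or 4 or the first SE-cKO library, and Atp1b2 was called in 4. In WT mice, Fxyd1 no longer passed once SE-WT replicate 1 or a single sham-WT library, whichever of the 3, was dropped. All 7 members passed the filter on low counts in each comparison. The median log2 fold change of the 7 was 0.42 in WT and 0.54 in cKO mice, compared with 0.02 and -5.87e-04 over all genes tested. These medians join members that were higher with members that were lower, and nothing is read from them either. Both SE comparisons use separate sham libraries and share none.

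Between the genotypes after SE, 0 of the 7 members were called among 21126 genes tested, where 0% of genes were called, 1 had an unadjusted p under 0.05, and DESeq2 called 1 (Fxyd5) and limma voom 0. Over all genes, DESeq2 called 304 higher and 222 lower there. By edgeR, 2046 of the 21126 genes had an unadjusted p under 0.05. Fxyd5 was higher in SE-cKO than in SE-WT by a log2 fold change of 1.21 (standard error 0.32), with no overlap between the groups. Fxyd7 was lower by -0.80 (standard error 0.47), Fxyd1 was higher by 0.44 (standard error 0.23), and Atp1b1 was lower by -0.34 (standard error 0.29), each with overlapping groups. Fxyd6 at -0.33, Atp1b3 at 0.09 and Atp1b2 at -0.07 also overlapped.

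Between sham-cKO and sham-WT, 0 of the 7 members were called among 20785 genes, where 0% of genes were called, 0 had an unadjusted p under 0.05, and DESeq2 and limma voom each called 0. Over all 20785 genes, 1152 had an unadjusted p under 0.05 by edgeR. The log2 fold changes of the members ranged from -0.27 for Fxyd1 to 0.52 (standard error 0.25) for Atp1b2, and the levels of all 7 overlapped. For the interaction, the SE difference in cKO mice less that in WT mice, edgeR called 0 of the 7 among 22596 genes, where it called 0.159%. An unadjusted p under 0.05 was found for 2 of the 7, and for 2834 of the 22596 genes tested. DESeq2 called 1 member (Fxyd5), where it called 361 genes higher and 364 lower. Limma voom called 0 members, where it called 20 genes higher and 21 lower. The value of the interaction was 1.48 (standard error 0.43) for Fxyd5, 0.76 (standard error 0.30) for Fxyd1 and -0.79 (standard error 0.51) for Fxyd7. This interaction uses the same libraries as the comparisons above.

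Levels were compared between genes in TPM, which corrects for transcript length as well as depth, as deposited. In sham-WT, the order was Atp1b1 at 440 ± 79.7 TPM (SD, n = 3), Atp1b3 at 42.8 ± 7.05, Fxyd6 at 34.4 ± 1.22, Fxyd1 at 24.7 ± 4.40, Fxyd7 at 19.8 ± 3.25, Atp1b2 at 14.0 ± 0.409 and Fxyd5 at 2.68 ± 0.599. Fxyd1 and Fxyd7, whose levels overlapped in sham-WT, were the only neighbors in this order that did. In SE-cKO, Fxyd1 at 78.7 ± 12.9 TPM (SD, n = 3) and Atp1b3 at 66.4 ± 16.3 overlapped as the next after Atp1b1 at 332 ± 109. They were followed by Atp1b2 at 36.3 ± 11.4, Fxyd6 at 25.5 ± 11.4, Fxyd5 at 18.4 ± 4.31 and Fxyd7 at 9.21 ± 2.35, where each gene from Atp1b3 to Fxyd6 overlapped with the next in this order and Fxyd5 did not overlap with Fxyd7. Fxyd7 was thus above Fxyd5 in every sham library and below it in every SE-cKO library.

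The makeup of the pump genes differed after SE in both genotypes. Of the summed TPM of the 3 beta subunits, Atp1b1 took 88.5% ± 0.489 in sham-WT (SD, n = 3), 88.7% ± 1.67 in sham-cKO (n = 4), 80.5% ± 2.46 in SE-WT (n = 3) and 76.0% ± 1.73 in SE-cKO (n = 3). Its share was 86.2% or more in each sham library and 82.4% or less in each SE library. Atp1b2 took 2.86% ± 0.412, 3.77% ± 1.32, 7.19% ± 0.949 and 8.48% ± 1.68 in the same order of groups. Atp1b3 took 8.62% ± 0.146, 7.53% ± 0.538, 12.3% ± 3.09 and 15.5% ± 1.44. The summed TPM of the 3 overlapped between groups, at 426 to 594 in sham-WT, 543 to 646 in sham-cKO, 314 to 791 in SE-WT and 305 to 573 in SE-cKO.

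Among the 4 FXYD members, Fxyd6 had the largest mean share in the sham groups and Fxyd1 in the SE groups. Fxyd1 took 30.3% ± 5.38 in sham-WT, 27.6% ± 5.32 in sham-cKO, 50.5% ± 11.5 in SE-WT and 59.7% ± 3.97 in SE-cKO. Fxyd6 took 42.2% ± 1.88, 40.7% ± 9.99, 29.3% ± 10.7 and 19.0% ± 6.77, and Fxyd7 took 24.3% ± 3.86, 28.5% ± 8.0, 13.2% ± 5.4 and 6.91% ± 0.926. Fxyd5 took 3.29% ± 0.773, 3.15% ± 0.418, 6.93% ± 1.10 and 14.4% ± 5.39. Shares within a sum depend on one another, so a higher share of one gene lowers that of the others.

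**Figure D3:**
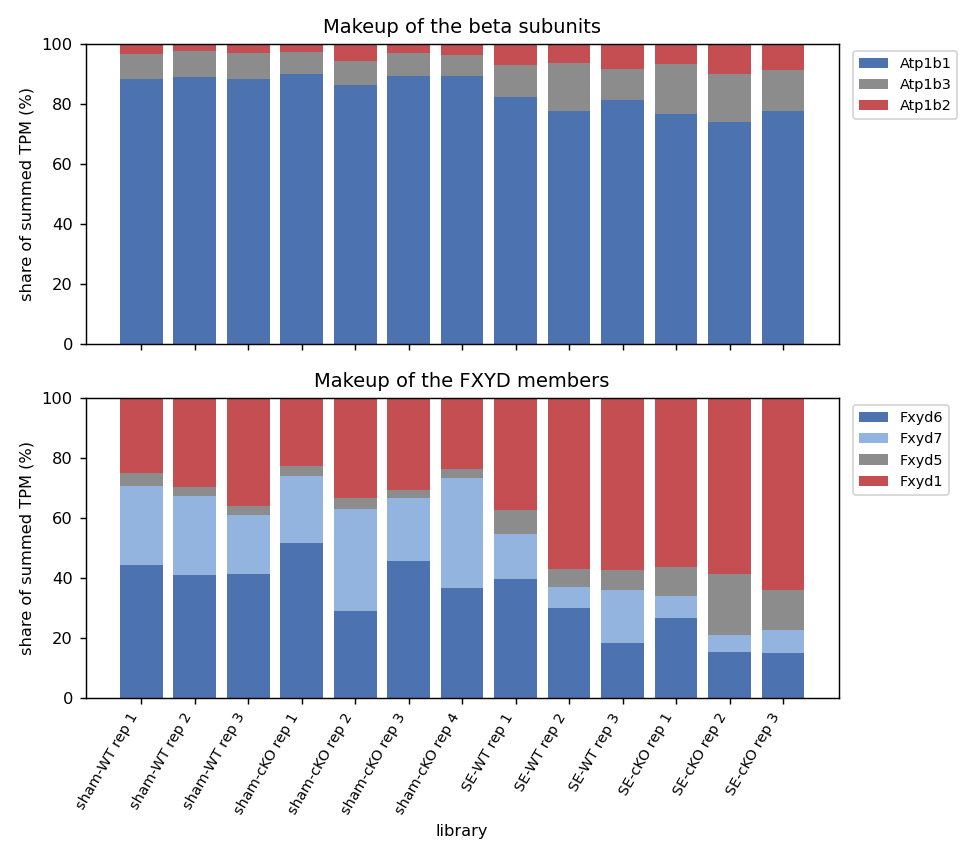
Share of each gene in the summed TPM of the 3 beta subunits (top) and of the 4 FXYD members (bottom), in percent, with 1 stacked bar per library. Blue marks mainly neuronal, red mainly astrocytic and grey broadly expressed genes. Atp1b1 takes 86.2% to 90.0% in sham libraries and 74.1% to 82.4% in SE libraries, and the red Fxyd1 share reaches 64% in SE-cKO replicate 3.

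Cell type markers also differed after SE. Of 7 neuron markers, 0 were called after SE in WT and 1 lower in cKO mice, with summed levels of 4746 to 5484 CPM in sham-WT, 4736 to 5518 in sham-cKO, 3386 to 4750 in SE-WT and 2989 to 4199 in SE-cKO. Of the 8 markers of hippocampal principal neurons, 3 were called lower in WT and 6 in cKO mice, with sums of 121 to 358 CPM in SE-WT and 215 to 258 in SE-cKO. SE-WT replicate 2, the library high in striatal genes, was at 123 CPM, and the part of the tissue taken was not tested. Of 8 astrocyte markers, 4 were called higher in WT mice, and 4 higher and 1 lower in cKO mice, with sums of 4872 to 5240 CPM in sham-WT, 4475 to 5909 in sham-cKO, 6738 to 7931 in SE-WT and 8696 to 9356 in SE-cKO. Within the astrocyte sum, mean Gfap was 327 CPM in sham-WT, 276 in sham-cKO, 2696 in SE-WT and 4688 in SE-cKO. Mean Slc1a2 was 3290, 3523, 2428 and 1970 CPM in the same order. All 7 microglia markers were called higher in both genotypes, with sums of 329 to 369 CPM in sham and 1059 to 1934 CPM in SE libraries. Of 7 markers of infiltrating leukocytes, 6 were tested, and 1 was called higher in WT and 5 in cKO mice, with sums of 7.12 to 10.8 CPM in sham-WT, 8.38 to 11.1 in sham-cKO, 21.6 to 71.1 in SE-WT and 64.7 to 149 in SE-cKO, and the T cell marker Cd3e was at 0 in all 13 libraries. Of 4 reactive glia markers, 3 were called higher in WT and 4 in cKO mice, with sums of 63.3 to 116 CPM in sham, 1115 to 1369 in SE-WT and 2414 to 2980 in SE-cKO, with Lcn2 at 0 in 3 sham libraries. Of 6 endothelial markers, 3 were called higher in cKO mice, with sums of 77.3 to 113 CPM in sham and 98.1 to 228 CPM in SE libraries. The part of these cell types in the level of Fxyd5, a gene of many cell types, was not tested.

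To set the members beside the marker sums, the CPM of each neuronal member was divided by the summed neuron markers and that of each astrocytic member by the summed astrocyte markers, per 1000 CPM of markers. Atp1b1 was then at 179 ± 8.14 in sham-WT, 188 ± 10.8 in sham-cKO, 186 ± 44.2 in SE-WT and 180 ± 17.4 in SE-cKO (SD, n = 3, 4, 3 and 3), with overlapping libraries. Fxyd6 was at 12.2 ± 1.97, 10.4 ± 3.35, 12.5 ± 3.48 and 12.3 ± 5.62 in the same order of groups. Fxyd7 had its lowest mean in SE-cKO, at 1.19 to 1.59, compared with 1.83 to 2.43 in sham-cKO, 1.87 to 2.51 in sham-WT and 0.911 to 2.54 in SE-WT. Fxyd1 was at 3.59 to 3.97 in SE-cKO and 1.23 to 2.43 in sham-cKO, without overlap, and at 2.56 to 4.99 in SE-WT and 1.96 to 2.75 in sham-WT, with overlap. Atp1b2 was at 7.66 to 11 in SE-cKO, within the range of 6.25 to 16.5 in sham-cKO, and at 7.75 to 19.1 in SE-WT against 6.15 to 7.67 in sham-WT, without overlap. The ratios of Fxyd1 and Atp1b2 depend on the high Gfap in the astrocyte sum of the SE libraries. Ratios without Gfap were not computed.

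**Figure D4:**
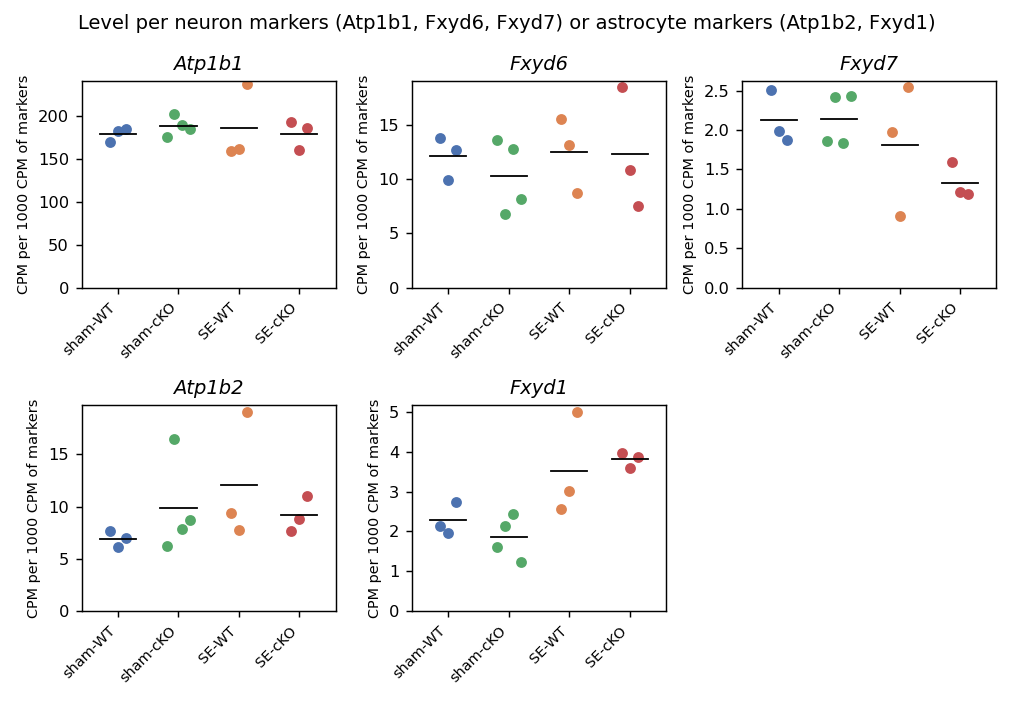
CPM of Atp1b1, Fxyd6 and Fxyd7 per 1000 CPM of 7 summed neuron markers, and of Atp1b2 and Fxyd1 per 1000 CPM of 8 summed astrocyte markers, in every library. Points are libraries and bars are group means, on axes that start at 0. The astrocyte sum includes Gfap, which was higher in the SE libraries. The SE-cKO libraries lie below both sham groups for Fxyd7, at 1.19 to 1.59, and above both for Fxyd1, at 3.59 to 3.97.

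The members also differed in how they varied together over the 13 libraries, which mix 4 groups and share their depth and tissue makeup, so that Pearson correlations of log2 CPM are given as a description. Fxyd1 correlated with Atp1b3 (r = 0.929) and with Fxyd5 (r = 0.911), and Atp1b1 with Fxyd7 (r = 0.903). The correlations of Fxyd6 with the other members ran from -0.616 with Atp1b2 and -0.421 with Atp1b3 to 0.228 with Atp1b1 and 0.356 with Fxyd7. Atp1b1 and Fxyd5 had r = -0.651, and Fxyd1 and Fxyd7 had r = -0.658. Among 14004 other genes, Reep5 and Brsk2 were the most alike in pattern to Atp1b1 (r = 0.980 for both), and the 3 most alike to Fxyd7 were Dnm1, Atp6v0d1 and Nudcd3 (r = 0.957 to 0.966). Those to Fxyd6 were Cyb561, Pde1a and Phldb2 (r = 0.906 to 0.937). Those to Fxyd1 were Cyb5r3, Plcb3 and Ppp1r14b (r = 0.979 to 0.983), and those to Atp1b2 were Tmem184b, Nfasc and Lrrc8a (r = 0.959 to 0.969). Those to Atp1b3 were Soat1, Ddr1 and Myo10 (r = 0.959 to 0.966), and those to Fxyd5 were Serping1, Cdc6 and Nes (r = 0.981 to 0.983).

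The pump subunit genes outside the 7 that are given here were scarce. Fxyd3 had 0 to 6 reads in the sham libraries, 7 to 14 in the SE-WT libraries and 80, 72 and 38 in the SE-cKO libraries, and was called higher in cKO mice (adjusted p = 0.0146, edgeR's quasi-likelihood test with Benjamini-Hochberg adjustment), which was lost without SE-cKO replicate 2 (adjusted p = 0.0535). Fxyd2, the kidney gamma subunit, was at 0.643 to 2.37 CPM in all libraries and passed no test. Atp1a4, the sperm catalytic subunit, had 0 reads in 11 libraries and 190 and 147 reads in SE-cKO replicates 2 and 3. Atp1b4 had 9 reads in 1 SE-WT library, Fxyd4 had 6 and 4 reads in SE-WT replicate 3 and SE-cKO replicate 3, and both had 0 in the others.

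Of 10 other P-type cation pump genes, 8 were tested in the cKO comparison, and 3 fell and 0 rose, with a median log2 fold change of -0.73 over the list, where 8.92% of all genes tested were called lower and 13.8% higher. All 3 were plasma membrane calcium pumps, namely Atp2b3 with -1.13 (standard error 0.19, adjusted p = 0.00380), Atp2b2 with -0.996 (standard error 0.19, adjusted p = 0.00685) and Atp2b1 with -0.84 (standard error 0.24, adjusted p = 0.0352), by edgeR's quasi-likelihood test. The call for Atp2b1 was kept only without SE-cKO replicate 3 among the 7 fits that left out 1 library (adjusted p from 0.0527 to 0.125 in the others). Atp2b2 was at 409, 409 and 367 CPM in sham-WT, 420, 430 and 512 in SE-WT, 368, 526, 364 and 542 in sham-cKO and 256, 191 and 242 in SE-cKO. In WT mice 0 of the 7 tested were called by edgeR, 2 had an unadjusted p under 0.05, and DESeq2 called Atp2b3. By edgeR, 4.57% of all genes tested were called higher and 0.832% lower there. An unadjusted p under 0.05 was found there for 4327 of the 20803 genes tested.

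Of 16 sodium-coupled exchangers and carriers, 1 fell and 0 rose in WT mice, and 7 fell and 1 rose in cKO mice, with list medians of -0.14 and -0.60. Over all genes tested, 0.832% were called lower and 4.57% higher in WT mice, and 8.92% lower and 13.8% higher in cKO mice. Slc9a2, a sodium-proton exchanger, fell in both, by 1.60 on the log2 scale in WT (standard error 0.27, adjusted p = 0.0185, edgeR) and by 1.72 in cKO mice (standard error 0.30, adjusted p = 0.00421). The WT call was lost without sham-WT replicate 2 or 3 (adjusted p = 0.103 and 0.0811). The mitochondrial exchanger gene Slc8b1, named after its values were seen, was the 1 that rose in cKO mice, by 0.93 (standard error 0.24, adjusted p = 0.0253), and its call was lost without any 1 of sham-cKO replicates 1, 3 and 4 or SE-cKO replicates 1 and 2 (adjusted p from 0.0568 to 0.0688). The astrocytic GABA transporter gene Slc6a11 was at 30.3, 19.4 and 26.8 CPM in SE-cKO and at 53.1, 176, 55.1 and 51.4 CPM in sham-cKO, where the high value was replicate 2, and it was called lower (adjusted p = 0.0299, edgeR), a call lost without any 1 of the SE-cKO libraries (adjusted p from 0.0684 to 0.116).

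Of 12 pump partners and regulators, 0 were called in WT mice, with 3 at an unadjusted p under 0.05 and 2 (Sgk1 and Wnk1) called by DESeq2, and 2 rose and 1 fell in cKO mice, with list medians of 0.20 and -0.02. The edgeR shares over all genes tested were 4.57% higher and 0.832% lower in WT mice, and 13.8% higher and 8.92% lower in cKO mice. In WT mice, 4327 of the 20803 genes tested had an unadjusted p under 0.05. Sgk1, a kinase that raises pump activity, rose by 0.97 (standard error 0.22, adjusted p = 0.0138, edgeR), and Stk39, a kinase of the chloride cotransporter pathway, fell by 0.73 (standard error 0.15, adjusted p = 0.00945). Mlc1, an astrocyte membrane protein that associates with the pump's beta subunit, rose by 0.57 (standard error 0.18, adjusted p = 0.0476), and its call was kept only without SE-cKO replicate 3 among the 7 fits that left out 1 library (adjusted p from 0.0699 to 0.150 in the others). Over the 4 lists, 0 genes were called by edgeR between SE-cKO and SE-WT or between sham-cKO and sham-WT. Between SE-cKO and SE-WT, 9 of these genes had an unadjusted p under 0.05, and DESeq2 called 4 lower, among them Atp2b2 and Slc6a11. Between the sham groups, 4 had an unadjusted p under 0.05 and DESeq2 called 0. Over all genes tested, such a p was found for 2046 of 21126 between the SE groups and for 1152 of 20785 between the sham groups.

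**Figure D5:**
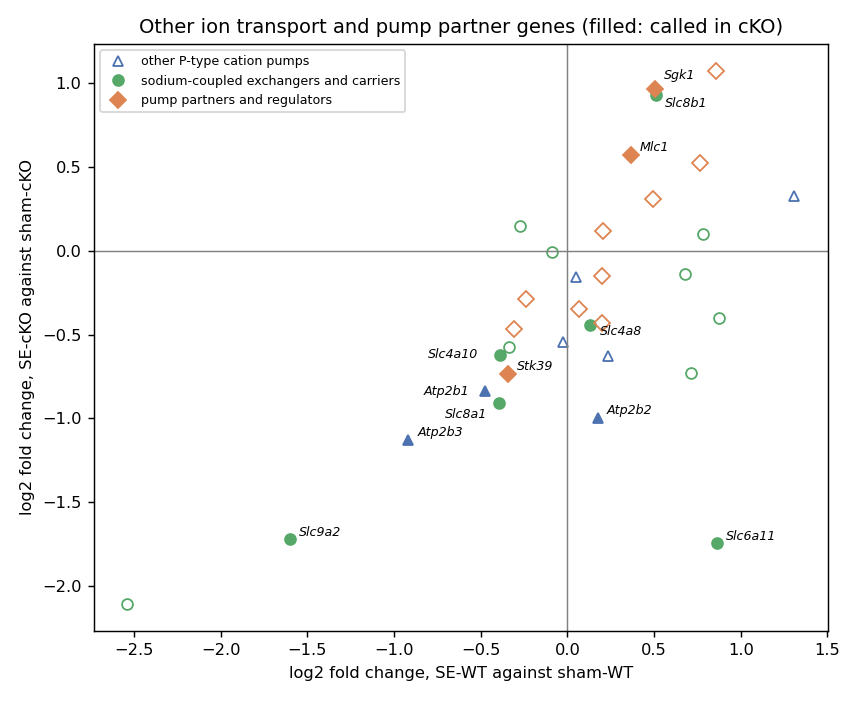
Log2 fold change after SE in WT mice (x axis) and in cKO mice (y axis) of other P-type cation pumps, sodium-coupled carriers and pump partners that were tested in both comparisons, except a few genes not reported here, with filled symbols for genes called in cKO mice. Called genes range from Slc6a11 at -1.75 to Sgk1 at 0.97.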

How the data were processed

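The authors sequenced total RNA from a stranded kit. The submitters' processing notes name bcl2fastq 2.20.0, Trimmomatic, HISAT2 2.1.0, StringTie 2.1.3b and mm10, and the deposited table of the whole series holds read counts, FPKM and TPM per gene and library. From the counts, CPM with TMM scaling were computed, and each pair of groups was fitted alone with edgeR 4.0.16 (robust quasi-likelihood, R 4.3.3) after a filter on low counts (minimum 10, total 15), with Benjamini-Hochberg adjustment over all genes tested and calls at 0.05. The interaction used all 13 libraries. Log2 CPM for correlations used a prior count of 2. The deposited TPM were used for levels between genes and shares, and the deposited FPKM for an alternative to these shares. The edgeR step was also run on simulated data with planted changes. The simulation set the same spread for all genes, so it does not measure error rates for these libraries. The labels call the libraries biological replicates and do not say whether each came from a separate animal, so p-values measure the spread between these libraries.

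Members and lists were chosen with earlier results of these data known. Named genes were the 7 members, the other pump subunits, up to 3 genes of smallest p per other list and comparison, and the 3 genes most correlated with each member (mean of at least 1 CPM). Alternatives were DESeq2 1.42.0, limma 3.58.1 voom, other scaling, no filter, a replicate block, 1 fit over the 4 groups, an Xist covariate for sex, and libraries left out. Some genes of these lists are not reported here.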

Additional observations from a re-analysis of the deposited data

Results flagged for a closer look

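In sham-cKO, the only group of 4 libraries, the gap between 1 library and the nearest other was large against the range of the group for 4 of the 45 genes screened, and chance gives this in about 1 in 20 groups. Fxyd5 was at 2.71 CPM in replicate 1 and at 1.70 to 1.87 CPM in the other 3. Slc6a11 was at 176 CPM in replicate 2 and at 51.4 to 55.1 CPM in the others. Atp2a1, a muscle calcium pump gene, was at 5.30 CPM in replicate 2 and at 0 in the others. Mlc1 was at 158.8 CPM in replicate 4 and at 178 to 181 CPM in the others. Replicate 2 was also the library highest in thalamic genes, and their part in these values was not tested.

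For 2 of the 53 genes considered, all SE libraries lay above all sham libraries in WT mice and below them in cKO mice. The share of all genes with this pattern was not counted. Some gaps were narrow. In WT mice the highest sham and lowest SE libraries were at 409 and 420 CPM for Atp2b2 and at 492 and 508 CPM for Ank3. In cKO mice the highest SE and lowest sham libraries were at 506 and 511 CPM for Ank3. Atp2b2 had a log2 fold change of 0.18 in WT and -0.996 in cKO mice, with an interaction of -1.17 (standard error 0.24, adjusted p = 0.0999, edgeR). Ank3, an ankyrin that anchors membrane proteins in axons, had 0.20 in WT and -0.43 in cKO mice, with an interaction of -0.63 (standard error 0.23, adjusted p = 0.276, edgeR). Neither interaction passed the threshold by edgeR. DESeq2 called that of Atp2b2 (adjusted p = 0.00103), the 1 call in 21 alternatives with adjusted p up to 0.263, and that of Ank3 was called in 0 of 21 (adjusted p from 0.106 to 0.632).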

How the results depend on the processing

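The count of members called in SE-WT against sham-WT, 1 as reported, was 3 with DESeq2 and with limma voom, 4 with all 4 groups in 1 fit, and 2 without the libraries of the other title style, without the 3 thalamic- or striatal-high libraries, or with Xist as a covariate. It ranged from 0 to 3 when 1 library was left out, with 0 without any 1 of the sham-WT libraries or SE-WT replicate 1. The other pathway genes called there, 1 as reported, were 7 with DESeq2 and 0 to 3 with 1 library left out, with 0 without sham-WT replicate 2 or 3 and 3 without SE-WT replicate 1. In SE-cKO against sham-cKO, the replicate block gave 3 members in place of 5 (Fxyd1, Fxyd5 and Fxyd7), and leaving out 1 library gave 11 to 16 other pathway genes in place of 17, with 11 without sham-cKO replicate 1 or 3. Leaving out 1 library gave 4 to 6 members there, with 4 without SE-cKO replicate 1 or any 1 of sham-cKO replicates 1, 3 and 4, where Atp1b1 was lost, and 6 without sham-cKO replicate 2, where Atp1b2 was added. In SE-cKO against SE-WT, DESeq2 called 1 member and 4 other pathway genes, and in the interaction it called 1 member, each in place of 0. Same-numbered libraries did not pair, with correlations of their deviations from -0.0738 to 0.249, and the block gave 1 member in the WT comparison and 0 in the other 3. Of the 574 values of single members under alternatives, 564 shifted by less than the pooled SD between replicates and 10 moved by more. All 10 were without the 3 thalamic- or striatal-high libraries, which leaves SE-WT with 1 library, assumed to vary like the other groups. Leaving out 1 library can seldom shift a group mean by that SD, so the 564 do not measure stability. The sign changed in 32 of the 574, of which 18 were between the sham groups, 7 between the SE groups, 6 in the interaction, 1 in the WT comparison (Fxyd6, from -0.24 to 0.25) and 0 in the cKO comparison.

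Over all genes, DESeq2 called 1895 higher and 797 lower in SE-WT against sham-WT, compared with 951 and 173, so that 70.4% of calls were higher in place of 84.6%, and limma voom gave 72%. The block gave 1698 higher and 760 lower in SE-cKO against sham-cKO, compared with 2937 and 1901. In SE-cKO against SE-WT, DESeq2 called 304 higher and 222 lower and the fit of all 4 groups 107 and 55, in place of 0. Between the sham groups DESeq2 called 15 higher and 2 lower, in place of 0. In the interaction DESeq2 called 361 higher and 364 lower, in place of 36 in either direction.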
